A study of Homo sapiens with 12 samples.

Results

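Expression of 10 enzymes and cofactors that write, copy or erase marks on DNA and histones was followed in 624Mel cells. 624Mel is an established human melanoma line that expresses MITF, the master transcription factor of the melanocytic lineage. The genes were taken by name from the deposited table of 40173 gene IDs, and all 10 matched 1 Ensembl ID each: DNMT1, UHRF1, DNMT3A, DNMT3B, TET1, TET2, TET3, EZH2, SETDB1 and KDM1A. They were chosen with earlier results of these data known. RNA was sequenced in 4 conditions with 3 libraries each, 12 in all, to ask how dedifferentiation by loss of MITF alters the response to interferon-γ (IFNγ). All cells were reverse transfected, with siCTRL, a non-targeting control siRNA, or siMITF, which targets MITF, and 24 h later they received 5 ng/mL IFNγ for 24 h or no cytokine. All were harvested 48 h after transfection. The siMITF + IFNγ, siMITF, siCTRL + IFNγ and siCTRL groups therefore differ only in these treatments, and each knockdown rests on 1 siRNA sequence in 1 cell line.

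DNA methylation at CpG sites is copied to the new strand after replication by DNMT1, which UHRF1 guides to hemimethylated sites, and is laid down at new sites by DNMT3A and DNMT3B. The TET enzymes start its removal by oxidising 5-methylcytosine. On histones, EZH2 is the catalytic subunit of Polycomb repressive complex 2 (PRC2) and methylates lysine 27 of histone H3, SETDB1 methylates lysine 9, and KDM1A (LSD1) removes methyl groups from lysine 4 within the CoREST complex. These enzymes keep germline genes, endogenous retroviruses and lineage genes silent, and several of them have been studied as drug targets in melanoma.

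Values were TPM, in which transcript estimates are scaled for transcript length and to a common library total, so that levels can also be set side by side between genes. Differences are given on the log2(TPM + 1) scale from limma fitted to the 12773 gene IDs whose average reached 2 TPM in any condition, and adjusted p-values are Benjamini-Hochberg values over those IDs. All 10 genes were tested. A gene was called higher or lower when the adjusted p was under 0.05. The methods of the study give its experiments as independent biological replicates, and the labels of the libraries add a number but no culture or day. Libraries with the same number shared deviations across genes, and the main fit, its intervals and the figures leave this number out. The value from a fit with this number as a replicate block is given wherever it changed a call of the 10 enzymes, and for the gene lists as a count where it moved the printed count by over 1.5 times.

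The knockdown held in both settings. MITF lay between 187 and 229 TPM in siCTRL and between 36 and 49.7 TPM in siMITF libraries, a log2 change of -2.29, and it changed by -2.14 under IFNγ. IFNγ raised IRF1, a direct target of its receptor signalling, by 4.66 in siCTRL and 5.25 in siMITF cells on the log2 scale. All 6 melanocytic markers were present in siCTRL cells (summed level 5783 to 6811 TPM) and fell with siMITF, while LUM was the only marker of fibroblasts, keratinocytes, immune or endothelial cells above 2 TPM in a library, at up to 7.42 TPM, and KRT5 was listed at 0 in all libraries without IFNγ. Mitochondrial transcripts took 7.42 to 16.9% of a library, and library 2 had the lowest share in each condition.

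KDM1A and DNMT1 were the most abundant of the 10 transcripts and TET1 the least, over a range from 123 to 2.2 TPM in siCTRL cells. KDM1A ranked first in siCTRL (mean 123 TPM), where its libraries overlapped those of DNMT1 (99 TPM), and stood clear of DNMT1 with IFNγ (214 against 79 TPM). In siMITF cells the order was turned, with DNMT1 at 127 and KDM1A at 91.5 TPM without overlap. EZH2 (49.4 TPM), UHRF1 (40.7 TPM), SETDB1 (28.7 TPM) and DNMT3A (14 TPM) followed in siCTRL cells, each separated from the next. TET3, TET2 and DNMT3B were neighbours between 8.27 and 6.88 TPM whose libraries overlapped.

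**Figure D1:**
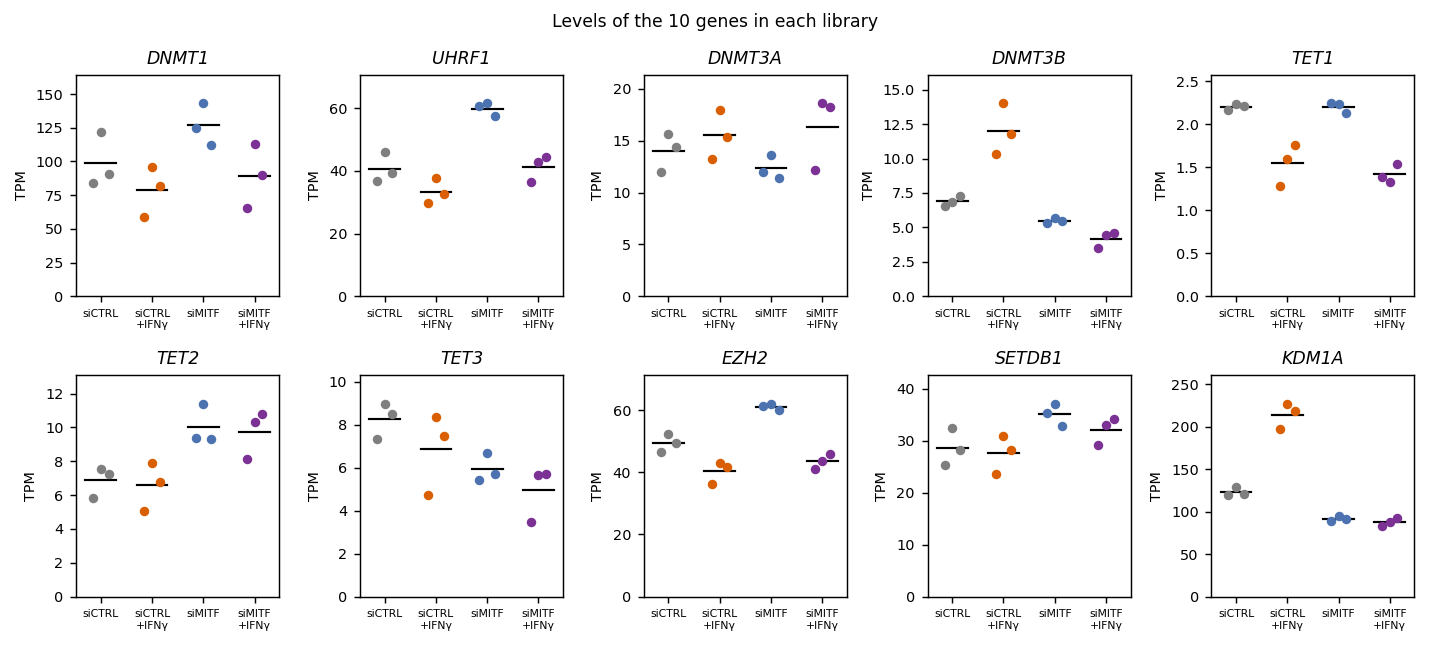
TPM of each of the 10 genes (vertical axis, from 0) in the 12 libraries, as points by condition, with the mean of 3 libraries as a bar. KDM1A and DNMT3B are highest in the siCTRL + IFNγ libraries (means 214 and 12 TPM), while UHRF1 and EZH2 are highest in siMITF libraries without IFNγ (59.9 and 61.1 TPM).

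With siMITF and no IFNγ, UHRF1, EZH2 and TET2 rose and KDM1A fell. These were 4 of the 10 genes, where 34.8% of all tested genes were called, 21% higher and 13.8% lower. Under IFNγ the siMITF effect was called for 3, with TET2 higher and KDM1A and DNMT3B lower, where 33.1% of all genes were called, 18.4% higher and 14.7% lower. IFNγ in siCTRL cells raised KDM1A and DNMT3B and lowered EZH2 and TET1, 4 of 10 where 12.9% of all genes were called, 6.8% higher and 6.14% lower. In siMITF cells IFNγ lowered UHRF1, EZH2 and TET1 and raised none, 3 of 10 where 20.2% were called, 7.99% higher and 12.2% lower. In siMITF + IFNγ against siCTRL cells TET2 was higher and KDM1A, DNMT3B, TET1 and TET3 were lower, 5 of 10 where 44.5% were called, 21.1% higher and 23.4% lower. TET1 passed the minimum of 2 TPM only through the groups without IFNγ, where it was higher. Without TET1 the counts were 3 of 9 for IFNγ in siCTRL cells, 2 of 9 in siMITF cells and 4 of 9 for the combination. The counts for siMITF and for the combination were near the share of all genes and say nothing particular of the enzymes. No count tests the set, because it was chosen with earlier results of these data known.

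A called change of at least 2-fold was seen only for KDM1A and DNMT3B, both for siMITF under IFNγ, where 5.68% of all genes had one. In the other 4 comparisons none of the 10 had one, beside 6.1% of all genes for siMITF without IFNγ, 2.52% for IFNγ in siCTRL cells, 2.95% for IFNγ in siMITF cells and 8.75% for the combination. The libraries of the conditions compared did not overlap for 7, 3, 4, 4 and 6 of the 10 genes, in the order siMITF without IFNγ, siMITF with IFNγ, IFNγ in siCTRL cells, IFNγ in siMITF cells and the combination, beside 55, 38.3, 29.7, 40.5 and 53.1% of all genes. TET1 is among those counted for both IFNγ comparisons and for the combination.

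With the replicate block the called enzymes became 8, 6, 6, 6 and 6 of 10 in the same order, against 47.7, 46.3, 25.7, 35.7 and 56.9% of all genes. The counts for both IFNγ comparisons and for the combination again include TET1, which was tested only for its higher level without IFNγ. The block added 13 calls. Of these, 11 were also added by quantile normalization and by centring each library on its median, and the other 2 were those of DNMT1 for siMITF without IFNγ and for IFNγ in siCTRL cells. Both of these scalings also called SETDB1 in the combination, and quantile normalization called TET1 for siMITF under IFNγ. Without a block and with the scaling of the deposited TPM, the median log2 changes of the 10 enzymes were 0.14, 0.08, -0.17, -0.28 and -0.17, beside 0.06, 0.03, -0.07, -0.10 and -0.04 over all tested genes. Comparisons that use the same libraries are not independent of each other, so their calls cannot be added up.

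**Figure D2:**
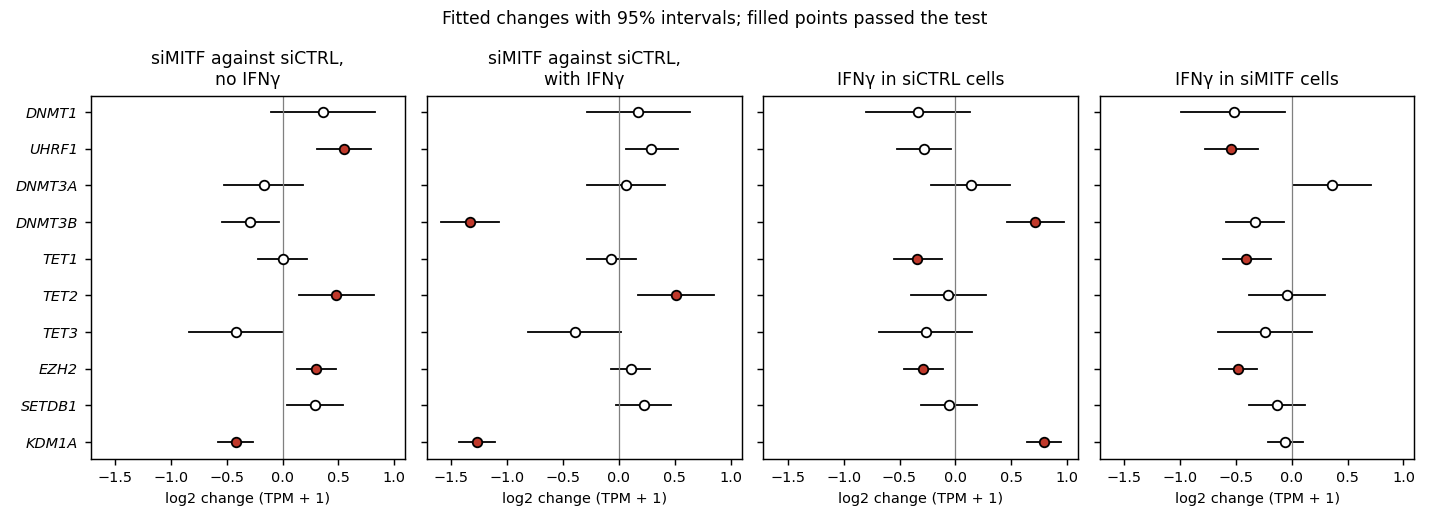
Log2 changes of the 10 genes (horizontal axis, TPM + 1) with 95% intervals in 4 comparisons, with filled points for an adjusted p under 0.05. KDM1A and DNMT3B lie to the right only for IFNγ in siCTRL cells (0.79 and 0.71) and farthest to the left for siMITF under IFNγ (-1.27 and -1.33).

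KDM1A, the lysine 4 demethylase, rose with IFNγ when MITF was present and did not when MITF was depleted. Its siCTRL libraries held 119, 129 and 121 TPM, and the siCTRL + IFNγ libraries 197, 227 and 218 TPM. In siMITF cells it stood at 88.5, 94.5 and 91.5 TPM without and at 83.2, 88.3 and 92.6 TPM with IFNγ. Every siCTRL + IFNγ library lay above every other library, and both siMITF groups lay below all siCTRL libraries while overlapping each other. The siCTRL means were 123 ± 4.99 TPM without and 214 ± 15.7 TPM with IFNγ, and the siMITF means were 91.5 ± 3.02 and 88 ± 4.73 TPM (SD, n = 3). The gene lies on the plus strand at chr1:23019443-23083689 (GRCh38, GENCODE 44).

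The IFNγ effect on KDM1A was a log2 change of 0.79 (SE 0.07, adjusted p = 6.1e-06, limma) in siCTRL cells, 1.73-fold on this scale. In siMITF cells it was -0.06, with a 95% interval from -0.21 to 0.10 (adjusted p = 0.622). The difference between these effects, the interaction, was -0.85 (SE 0.10, 95% interval -1.07 to -0.63, adjusted p = 0.00101), and it was called in 22 of 22 alternative analyses with adjusted p from 5.6e-05 to 0.00651. The siMITF effect was accordingly -0.42 (adjusted p = 6.4e-04) without IFNγ and -1.27 (adjusted p = 5.9e-08) with it. Libraries were made from bulk RNA, so a lower level in fewer cells and a lower level in each cell cannot be told apart.

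The sequence around the RefSeq start of KDM1A (GRCh38.p14, plus strand, chr1:23019358-23019472) is shown because the gene had the smallest p of the 10 in the interaction. It runs from 110 bases before to 5 bases after the annotated start and holds 16 CpG sites in 115 bases, with the letters of an E2F-type motif, TTGGCGC, in capitals.
KDM1A: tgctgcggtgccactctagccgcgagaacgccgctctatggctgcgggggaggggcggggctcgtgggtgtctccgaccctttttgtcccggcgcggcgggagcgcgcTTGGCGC
This motif, searched on both strands, was present in 3.04% of 35116 RefSeq windows of the same kind (250 bases before to 50 after a start). Of the 23 windows of the 10 genes it was in 2, of KDM1A and EZH2. The interferon-type motifs TTCNNNGAA (7.66% of windows) and TTTCNNTTTC (3.57%) were in none of the 23 windows of the 10 genes, which says only that these letters are not there.

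DNMT3B, one of the enzymes that place methylation at new sites, rose with IFNγ in siCTRL cells as KDM1A did, at a lower level, and in siMITF cells its libraries were lower with IFNγ. The siCTRL libraries held 6.53, 6.81 and 7.31 TPM and the siCTRL + IFNγ libraries 10.3, 14 and 11.8 TPM. The siMITF libraries held 5.3, 5.66 and 5.44 TPM and the siMITF + IFNγ libraries 3.51, 4.43 and 4.56 TPM. No 2 groups overlapped, with siCTRL + IFNγ highest and siMITF + IFNγ lowest. Means were 6.88 ± 0.393, 12 ± 1.86, 5.47 ± 0.184 and 4.17 ± 0.571 TPM (SD, n = 3), in that order. The gene lies on the plus strand at chr20:32762385-32809359 (GRCh38, GENCODE 44), and its only RefSeq start used here is 17467 bases inside this span. The stretch around that start held none of the E2F-type or E-box motifs and is not shown.

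IFNγ changed DNMT3B by 0.71 (SE 0.12, adjusted p = 0.00139, limma) in siCTRL cells, and by -0.33 (SE 0.12, adjusted p = 0.0702) in siMITF cells. The fall in siMITF cells was called with the replicate block (adjusted p = 0.0183, with 0.00419 to 0.212 over the alternatives) and on leaving out siCTRL + IFNγ library 1 (0.0418) or 2 (0.0432). The interaction was -1.04 (SE 0.17, 95% interval -1.41 to -0.68, adjusted p = 0.0089), called in 22 of 22 alternatives with adjusted p from 3.7e-04 to 0.0348. siMITF changed DNMT3B by -0.29 without IFNγ (adjusted p = 0.0819, 0.0265 with the block and 0.00179 to 0.222 over the alternatives) and by -1.33 with it (adjusted p = 3.0e-06). Against siCTRL, the combined treatment left it at -0.61 (adjusted p = 0.00109).

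KDM1A and DNMT3B were the 2 of 10 genes with a called interaction, against 0.947% of all tested genes (121 of 12773), of which 0.705% were positive and 0.243% negative (31 genes). With the block they were again the only 2, beside 2.16% of all genes, and DNMT3B alone passed 2-fold, beside 0.478%. At an unadjusted p under 0.05 they were also the only 2 of the 10, beside 7.67% of all genes. The 10 enzymes were chosen with earlier results of these data known, so these shares cannot test the set. Of the 31 genes with a negative interaction, 10 rose with IFNγ in siCTRL cells and were not called higher in siMITF cells, and these 10 were BLCAP, CENPW, CST2, DNMT3B, GAGE13, KDM1A, LMO2, NREP, PPY and SEPTIN3. This class was defined after the values had been seen. The other 8 enzymes had interactions between -0.26 (UHRF1) and 0.23 (DNMT3A), none called, with 95% intervals that reached at most 0.72 in either direction except -0.85 for DNMT1.

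**Figure D3:**
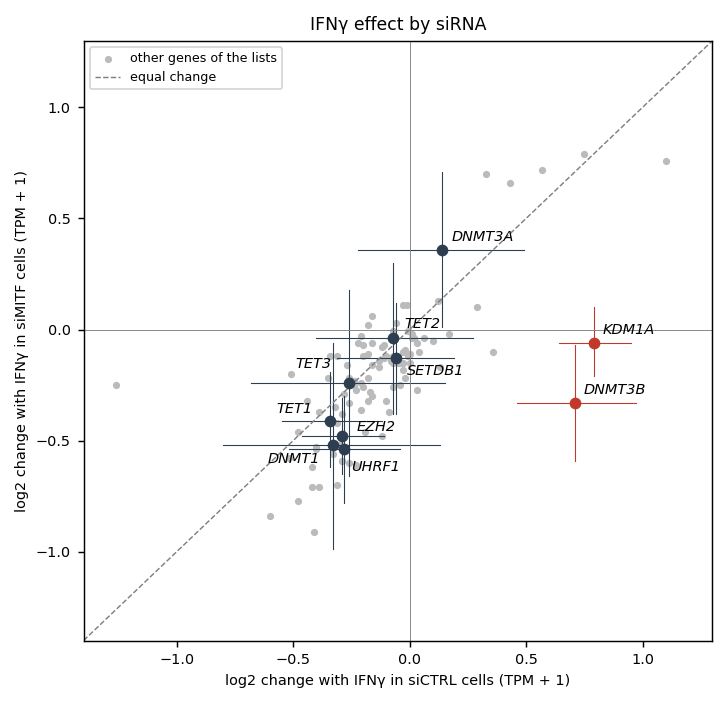
Log2 change with IFNγ (TPM + 1) in siCTRL cells (horizontal axis) against siMITF cells (vertical axis) for the 10 genes, with 95% intervals, and for the genes of the 7 partner and proliferation lists in grey. The dashed line marks equal change. KDM1A (0.79, -0.06) and DNMT3B (0.71, -0.33), in red for a called interaction, lie far to the right of the line, and for the other 8 the 95% interval of the difference includes 0.

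DNMT3A, the other de novo methyltransferase, did not follow DNMT3B. It held 12, 15.7 and 14.4 TPM in siCTRL libraries, 13.2, 18 and 15.4 TPM with IFNγ, 12, 13.6 and 11.4 TPM with siMITF and 12.2, 18.6 and 18.3 TPM with both. All groups overlapped, and no comparison was called. Its change with IFNγ in siMITF cells was 0.36 (SE 0.16, adjusted p = 0.137, limma), which passed with the replicate block (adjusted p = 0.0132, with 0.00789 to 0.326 over the alternatives) and without siMITF + IFNγ library 1 (0.0175). Leaving out that library also gave a call against siCTRL (0.043).

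UHRF1, which brings DNMT1 to replicating DNA, was raised by MITF depletion and lowered by IFNγ. It held 36.8, 46 and 39.3 TPM in siCTRL, 29.9, 37.8 and 32.5 TPM in siCTRL + IFNγ, 60.7, 61.5 and 57.4 TPM in siMITF and 36.3, 42.7 and 44.3 TPM in siMITF + IFNγ libraries. The siMITF libraries without IFNγ lay above all others, and the other 3 groups overlapped. siMITF changed it by 0.55 (SE 0.11, adjusted p = 0.00183, limma) without IFNγ, and IFNγ changed it by -0.54 (SE 0.11, adjusted p = 0.00418) in siMITF cells, both called in 23 of 23 alternatives.

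In the presence of IFNγ the siMITF effect on UHRF1 was 0.29 (adjusted p = 0.0577) and in siCTRL cells the IFNγ effect was -0.28 (adjusted p = 0.125). The replicate block called both, at 0.00832 (0.00131 to 0.173 over the alternatives) and 0.0203 (0.00484 to 0.417). Leaving out siCTRL library 2 (0.0446), siCTRL + IFNγ library 2 (0.0209) or siMITF + IFNγ library 1 (0.0207) also called the first, and leaving out siCTRL + IFNγ library 2 (0.047) the second. The combination differed from siCTRL by 0.01, with a 95% interval from -0.22 to 0.25.

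DNMT1, the maintenance methyltransferase, had a wide spread between libraries of a condition. The levels were 84, 122 and 91 TPM in siCTRL, 59, 96.2 and 81.9 TPM in siCTRL + IFNγ, 125, 143 and 112 TPM in siMITF and 65.5, 113 and 89.8 TPM in siMITF + IFNγ libraries. Library 2 was the highest in all 4 conditions. It was also the library with the lowest mitochondrial share in each, whose part in the level was not tested. Only siMITF and siCTRL + IFNγ were separated, and the groups of every comparison made here overlapped.

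No comparison of DNMT1 was called in the fit without a block, and with the block 3 were. These were siMITF without IFNγ (0.36, SE 0.21, adjusted p = 0.218, and 0.0143 with the block), IFNγ in siCTRL cells (-0.33, adjusted p = 0.365, and 0.0393 with the block) and IFNγ in siMITF cells (-0.52, adjusted p = 0.107, and 0.00265 with the block). Over the alternatives these adjusted p-values ran from 0.0143 to 0.484, 0.0393 to 0.785 and 0.00265 to 0.338, and the last was also called with quantile normalization (0.0445), with median centring (0.0275) and without siMITF + IFNγ library 2 (0.0425). DNMT1 shares 83 exon bases with S1PR2 on the same strand, a gene at a mean of 5.77 TPM.

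The UHRF1 start is shown because UHRF1 belongs to the genes whose windows carry an E2F-type motif, a kind of site found at many replication genes. The 30 bases before the RefSeq start (GRCh38.p14, plus strand, chr19:4909471-4909500) hold the motif TTCCCGC on the opposite strand, in capitals. This start is 6421 bases inside the GENCODE 44 span of UHRF1 (chr19:4903080-4962154), and all 30 bases lie within annotated exons.
UHRF1: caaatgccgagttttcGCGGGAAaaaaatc
A further match began at position -104 from the start. Of all windows 6.55% held TTCCCGC, and of the 23 windows of the 10 genes 2 did, of UHRF1 and TET3. The proliferation markers, a list of 16 genes such as MKI67, TOP2A and the MCM helicase subunits, were lower with IFNγ. With IFNγ 7 fell in siCTRL cells, where 6.14% of all genes were called lower, and 12 in siMITF cells, where 12.2% were. None rose. With the replicate block 13 fell in siCTRL cells, beside 25.7% of all genes called in either direction. With siMITF and no IFNγ 2 rose and 2 fell, where 34.8% of all genes were called, with a median of 0.01 beside 0.06 over all genes. With the block 4 rose and 2 fell, beside 47.7%. Under IFNγ none rose and 3 fell with siMITF, where 33.1% of all genes were called, with a median of -0.18 beside 0.03. With the block 7 fell, beside 46.3% of all genes called. Their summed level was 1644 to 1865 TPM in siCTRL, 1181 to 1541 TPM in siCTRL + IFNγ, 1749 to 1888 TPM in siMITF and 1111 to 1314 TPM in siMITF + IFNγ libraries. The part of these markers in the levels of UHRF1, DNMT1, EZH2 and TET1 was not tested.

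EZH2, the PRC2 methyltransferase, had a profile like that of UHRF1. It held 46.6, 52.2 and 49.3 TPM in siCTRL, 36.4, 43 and 41.7 TPM in siCTRL + IFNγ, 61.3, 62.1 and 60 TPM in siMITF and 41.1, 43.8 and 45.8 TPM in siMITF + IFNγ libraries. The siMITF group stood above all others and the siCTRL group above both IFNγ groups, which overlapped each other. It changed by 0.30 (SE 0.08, adjusted p = 0.0107, limma) with siMITF and by -0.48 (SE 0.08, adjusted p = 0.00106) with IFNγ in siMITF cells.

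The first of these calls was lost without siCTRL library 1 (adjusted p = 0.054). In siCTRL cells IFNγ changed EZH2 by -0.29 (adjusted p = 0.0352), a call that was lost without siCTRL library 2 (0.136) or 3 (0.0973), without siCTRL + IFNγ library 1 (0.108) or 3 (0.0715), without any 1 siMITF library (0.056 to 0.0592) and with only those 2 conditions in the fit (0.119). With IFNγ present, siMITF changed it by 0.11 (adjusted p = 0.332). The combination lay at -0.18 against siCTRL (adjusted p = 0.0936, 0.0293 with the block and 0.0121 to 0.261 over the alternatives).

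The TET genes, which oxidise 5-methylcytosine, went separate ways. TET1 followed IFNγ, and TET2 was higher with siMITF. TET3 was called without a block only in the combination against siCTRL, where it was lower. Their summed level was 15.4 to 18.8 TPM in siCTRL, 11.1 to 17.8 TPM in siCTRL + IFNγ, 17 to 20.3 TPM in siMITF and 13 to 18 TPM in siMITF + IFNγ libraries, overlapping throughout.

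TET1 was close to the minimum for testing, and it passed only through the groups without IFNγ, where it was higher. It held 2.16, 2.23 and 2.21 TPM in siCTRL and 2.24, 2.23 and 2.13 TPM in siMITF libraries, and 1.28, 1.59 and 1.76 TPM and 1.38, 1.33 and 1.54 TPM in the same cells with IFNγ. Every library with IFNγ lay below every library without. The difference with IFNγ was -0.34 (SE 0.10) in siCTRL and -0.41 (SE 0.10) in siMITF cells. Because the minimum kept TET1 for its level without IFNγ, the p-values given first are from a fit without that minimum. TET1 was then called in siMITF cells (adjusted p = 0.0174, limma) and in the combination (0.0075) and was not called in siCTRL cells (0.0603). The call in siCTRL cells with the minimum (0.0447) was lost on leaving out any 1 library but siMITF + IFNγ library 1 (adjusted p from 0.0511 to 0.168), with a pseudocount of 0.1 (0.0559) and with only 2 conditions in the fit (0.119). siMITF alone gave 0.00029 with a 95% interval from -0.22 to 0.22.

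TET2 was higher in MITF-depleted cells whether or not IFNγ was given. The siCTRL libraries held 5.84, 7.57 and 7.24 TPM and the siMITF libraries 9.36, 11.4 and 9.31 TPM. With IFNγ the levels were 5.07, 7.89 and 6.8 TPM in siCTRL and 8.11, 10.3 and 10.8 TPM in siMITF cells. All 6 siMITF libraries lay above all 6 siCTRL libraries. The siMITF effect was 0.48 (SE 0.16, adjusted p = 0.0289, limma) without and 0.51 (SE 0.16, adjusted p = 0.0239) with IFNγ, and the IFNγ effects were -0.07 and -0.04, neither called.

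The TET2 calls were not firm against single libraries. The one without IFNγ was lost without siCTRL library 1 (0.119) or 3 (0.0545) or siMITF library 1 (0.0504) or 2 (0.117), and the one with IFNγ without siCTRL + IFNγ library 1 (0.0811) or siMITF + IFNγ library 2 (0.0736) or 3 (0.0838) or with only those 2 conditions in the fit (0.0728). Both were lost when no filter on low values was used (0.075 and 0.0638). The combination against siCTRL (0.44, adjusted p = 0.035) was lost without siCTRL library 1 (0.132) or 3 (0.0588) or siMITF + IFNγ library 2 (0.0941) or 3 (0.114) and without the filter (0.0845).

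TET3 pointed the other way. It held 7.35, 8.98 and 8.48 TPM in siCTRL, 4.75, 8.35 and 7.48 TPM in siCTRL + IFNγ, 5.42, 6.69 and 5.71 TPM in siMITF and 3.49, 5.68 and 5.72 TPM in siMITF + IFNγ libraries. The siMITF groups lay below siCTRL without overlap, while siCTRL + IFNγ overlapped all. The combination differed from siCTRL by -0.66 (SE 0.19, adjusted p = 0.0144, limma), lost without siCTRL library 2 (0.0526) or siMITF + IFNγ library 1 (0.0549). siMITF changed it by -0.42 without IFNγ (adjusted p = 0.114, 0.00919 with the block and 0.00919 to 0.262 over the alternatives) and by -0.39 with it (adjusted p = 0.139, 0.0134 with the block and 0.0134 to 0.424 over the alternatives). Both were also called without siCTRL + IFNγ library 1 (0.0484 and 0.0177). TET3 shares 390 exon bases with a long non-coding RNA gene on the same strand.

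Starts of the TET genes are shown because MITF, the depleted factor, belongs to the factors that bind the E-box CACGTG. Both stretches run from 110 bases before to 10 after the RefSeq start on the plus strand of GRCh38.p14, with CACGTG in capitals, TET2 at chr4:105145765-105145884 and TET3 at chr2:73984800-73984919.
TET2: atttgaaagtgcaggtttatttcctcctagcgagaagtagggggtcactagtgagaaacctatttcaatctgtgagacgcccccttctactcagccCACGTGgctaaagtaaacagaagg
TET3: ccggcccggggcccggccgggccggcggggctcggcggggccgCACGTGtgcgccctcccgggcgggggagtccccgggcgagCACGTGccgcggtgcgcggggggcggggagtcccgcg
TET2 had 1 match and TET3 had 2. The stretches differ in composition, with 3 CpG sites and 46.7% G and C in TET2 and 23 CpG sites and 89.2% in TET3. CACGTG was present in 7.26% of all windows and in 6 of the 23 windows of the 10 genes. These windows belonged to 4 genes, TET2, TET3, SETDB1 and DNMT3A. For SETDB1 and for DNMT3A the same site was counted in overlapping windows. A match is a description of letters and not evidence of binding.

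SETDB1, the lysine 9 methyltransferase of retroviral silencing, passed no test in the fit as described, and its siMITF effects passed under other scalings and with the replicate block. It held 25.3, 32.5 and 28.2 TPM in siCTRL, 23.6, 30.8 and 28.2 TPM in siCTRL + IFNγ, 35.4, 37.1 and 32.9 TPM in siMITF and 29.2, 33 and 34.1 TPM in siMITF + IFNγ libraries. The siMITF libraries lay above all siCTRL libraries with or without IFNγ, and the siMITF + IFNγ libraries overlapped all other groups. siMITF changed it by 0.29 without IFNγ (SE 0.11, adjusted p = 0.0691, limma, 0.0101 with the block and 0.00236 to 0.251 over the alternatives) and by 0.22 with it (adjusted p = 0.166, 0.0404 with the block and 0.00602 to 0.448 over the alternatives). The first was also called with quantile normalization (0.00236), median centring (0.00256), rescaling without mitochondrial genes (0.0179), only those 2 conditions (0.0348), and without siCTRL library 2 (0.031) or siCTRL + IFNγ library 1 (0.0367). The same 3 scalings called the second (0.00602, 0.00969 and 0.0419), and the first 2 of them called the combination against siCTRL (0.00882 and 0.0232). SETDB1 shares 948 exon bases with CERS2 on the opposite strand, at a mean of 99.9 TPM, and the library kit does not mark strand, so reads there cannot be told apart.

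Its start is given for the E-box it shares with the TET genes (GRCh38.p14, plus strand, chr1:150926153-150926272, CACGTG in capitals).
SETDB1: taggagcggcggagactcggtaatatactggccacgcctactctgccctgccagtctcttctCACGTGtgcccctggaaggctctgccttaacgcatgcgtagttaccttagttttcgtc

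Partner genes of each enzyme were taken from lists of complex subunits and readers. Among 13 tested DNA methylation partners and readers, 1 rose and 2 fell with siMITF, where 34.8% of all genes were called, and 1 rose and 3 fell with IFNγ in siMITF cells, where 20.2% were. With the replicate block these counts were 2 and 3, beside 47.7% of all genes, and 1 and 7, beside 35.7%. HELLS, a chromatin remodeller needed for DNA methylation, had 41.2 ± 6.19 TPM in siCTRL and 18.7 ± 3.08 TPM in siMITF + IFNγ libraries (SD, n = 3), a change of -1.10 (adjusted p = 2.8e-05, limma). ZBTB33, which encodes the methyl-CpG reader Kaiso, rose by 0.70 with IFNγ in siMITF cells (adjusted p = 2.2e-04), and PCNA, the replication clamp that UHRF1 and DNMT1 work beside, fell by 0.35 (adjusted p = 8.2e-04). The median of the list with IFNγ in siMITF cells was -0.25 beside -0.10 over all genes.

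In the list of 9 tested genes of demethylation and repair, IDH1, whose product 2-oxoglutarate is a cosubstrate of the TET enzymes, moved most. It had 126 ± 3.99 TPM in siCTRL, 273 ± 17 in siCTRL + IFNγ, 77.8 ± 2.45 in siMITF and 132 ± 6.68 TPM in siMITF + IFNγ libraries (SD, n = 3). It rose with IFNγ in both backgrounds, by 1.10 (adjusted p = 1.1e-07) and 0.76 (adjusted p = 4.4e-06), and fell with siMITF by 0.69 (adjusted p = 6.1e-06) and 1.04 (adjusted p = 2.0e-07) on the log2 scale. Its interaction of -0.34 was not called (adjusted p = 0.176). With IFNγ 2 of the 9 rose and 3 fell in siCTRL cells, and 2 rose and 2 fell in siMITF cells, beside 12.9 and 20.2% of all genes called. With the block 2 rose and 4 fell in siMITF cells, beside 35.7%. GADD45B, a stress gene linked to demethylation, rose by 0.75 and 0.79 with IFNγ in siCTRL and siMITF cells. GADD45A changed by -0.48 and -0.46 (adjusted p = 0.00687 and 0.00659, limma), and CXXC5 fell by 0.40 and 0.53.

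Of the 12 PRC2 subunits and lysine 27 demethylases, 2 rose and 1 fell with siMITF (34.8% of all genes called), and 1 rose and 2 fell with IFNγ in siMITF cells (20.2%). With the block 3 rose and 2 fell with siMITF, beside 47.7% of all genes, and 1 rose and 4 fell with IFNγ in siMITF cells, beside 35.7%. PHF19, a PRC2 accessory subunit, had 56.7 ± 0.709 TPM in siCTRL, 42.6 ± 3.77 in siCTRL + IFNγ, 120 ± 2.78 in siMITF and 64 ± 5.79 TPM in siMITF + IFNγ libraries (SD, n = 3). Its mean was highest with siMITF and lowest in siCTRL + IFNγ, as for EZH2. Its siMITF + IFNγ libraries lay above siCTRL, where those of EZH2 lay below. PHF19 rose by 1.07 with siMITF (adjusted p = 6.4e-07) and fell by 0.91 with IFNγ in siMITF cells (adjusted p = 4.6e-06). AEBP2, another accessory subunit, rose with IFNγ by 0.57 and 0.72, and KDM6B, a lysine 27 demethylase, rose by 0.74 with siMITF (adjusted p = 0.00847).

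Among 18 genes of Polycomb repressive complex 1, which reads the PRC2 mark, 3 rose and 2 fell with siMITF, and 1 rose and none fell with IFNγ in siMITF cells, beside the same 34.8 and 20.2% of all genes. With the block 5 rose and 3 fell with siMITF, beside 47.7% of all genes, and 1 rose and 4 fell with IFNγ in siMITF cells, beside 35.7%. BMI1 rose by 0.60 (adjusted p = 0.0027) and CBX2 fell by 0.54 (adjusted p = 0.022) with siMITF, and PCGF5 rose with IFNγ by 0.43 (adjusted p = 0.00362) and 0.66 (adjusted p = 8.7e-05). In the 19 genes of lysine 9 methylation and the HUSH complex, which work with SETDB1, 4 rose and 1 fell with siMITF, a share below the 34.8% of all genes called. All 3 genes of HP1, the reader of lysine 9 methylation, were among those that rose, CBX5 by 0.62, CBX1 by 0.48 and CBX3 by 0.32, while SETDB2, a relative of SETDB1, fell by 0.88 (adjusted p = 1.5e-05). With IFNγ in siMITF cells none of the list rose and 4 fell, where 20.2% of all genes were called. Of the HP1 genes, CBX5 changed there by -0.58 (adjusted p = 0.00199, limma), CBX1 by -0.28 (0.044) and CBX3 by -0.07 (0.631).

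Of 12 tested partners of KDM1A in CoREST and other lysine 4 demethylases, 5 rose and 1 fell with siMITF, where 34.8% of all genes were called, 21% higher and 13.8% lower. The median of the list was 0.29 beside 0.06 over all genes. HDAC1, a deacetylase of the complex, rose by 1.33 with siMITF (adjusted p = 2.5e-05), from 101 ± 12.5 to 255 ± 18.4 TPM (SD, n = 3), while KDM1A fell. The related demethylase KDM5B fell by 0.76 (adjusted p = 3.0e-05). HDAC2, the other deacetylase of the list, changed by 0.01 with siMITF (adjusted p = 0.908, limma), with 214 ± 13.4 and 216 ± 5.76 TPM. With IFNγ in siCTRL cells, where KDM1A rose, HDAC2 fell by 0.27 (adjusted p = 0.0271) and no other partner was called without the block, where 12.9% of all genes were. With the block 1 rose and 3 fell, beside 25.7% of all genes, and the one that rose was HDAC1, at 0.29 (adjusted p = 0.0076 with the block and 0.261 without). None of the 6 partner lists held a called interaction, and with the block PHF19 of the PRC2 list had one, at -0.50 (adjusted p = 0.0241 with the block and 0.0802 without).

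**Figure D4:**
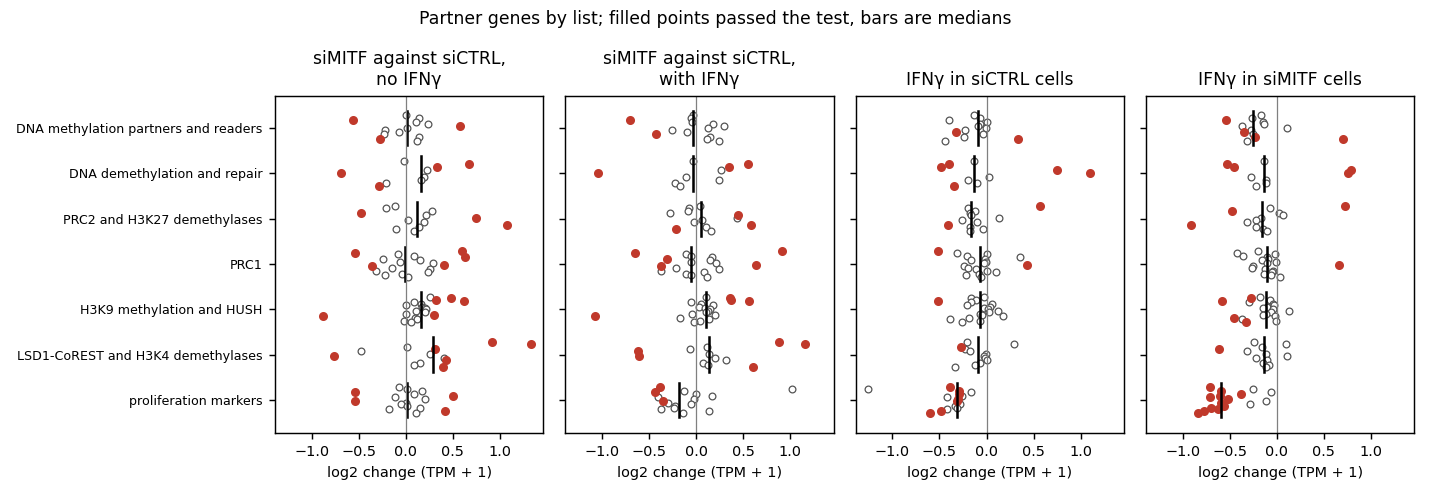
Log2 changes (horizontal axis, TPM + 1) of the tested genes of 6 partner lists and of the proliferation markers in 4 comparisons. Each point is a gene, filled for an adjusted p under 0.05, and the bar is the list's median. The proliferation markers lie left of 0 with IFNγ (medians -0.31 in siCTRL and -0.59 in siMITF cells), and the partner lists hold genes on both sides.

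Ratios within a library do not depend on its total, and those given here were chosen after the values had been seen and carry no test. The TET2 to TET3 ratio of TPM was 0.794 to 0.854 in siCTRL, 0.909 to 1.07 in siCTRL + IFNγ, 1.63 to 1.73 in siMITF and 1.82 to 2.32 in siMITF + IFNγ libraries, with no overlap between the groups. The DNMT3B to DNMT3A ratio was 0.435 to 0.543, 0.766 to 0.78, 0.417 to 0.475 and 0.238 to 0.288 in the same order, so that only siCTRL and siMITF without IFNγ overlapped. KDM1A to HDAC1 lay at 1.14 to 1.35, 1.56 to 1.98, 0.345 to 0.373 and 0.275 to 0.373, with KDM1A above HDAC1 in every siCTRL library and below it in every siMITF library. No ratio to HDAC2 was taken. DNMT1 made up 80.8 to 84.5% of the summed DNMT1, DNMT3A and DNMT3B level in siCTRL, 71.6 to 75.1% in siCTRL + IFNγ, 86.8 to 88.2% in siMITF and 79.7 to 83.1% in siMITF + IFNγ libraries. UHRF1 to DNMT1 overlapped in all groups, from 0.376 to 0.554.

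The genes whose log2 levels followed the enzymes most closely over the 12 libraries were named by Pearson's r, as a description of points that share 4 conditions and library numbers. For DNMT3B these were KDM1A (0.971), MCF2L (0.961) and SCD (0.952), and for KDM1A they were TTC7B (0.983), C14orf132 (0.978) and SCD (0.974). EZH2 was followed most closely by TOP2A (0.985), the topoisomerase of dividing cells, then JAM3 (0.983) and VOPP1 (0.981). For UHRF1 they were PDAP1 (0.993), CPSF4 (0.990) and CCDC85C (0.985), and for TET1 they were SNRNP40 (0.979), KIF23 (0.969) and MRPS27 (0.967). TET2 was closest to NCOA6 (0.991) and TET3 to MYO5A (0.993). Within the 10 enzymes UHRF1 and EZH2 had an r of 0.95, TET2 and SETDB1 0.94, UHRF1 and DNMT1 0.87, and DNMT1 and EZH2 0.85.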

How the data were processed

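RNA libraries made by the authors with the TruSeq RNA v2 kit, which does not mark strand, were sequenced. The authors trimmed reads with Trimmomatic 0.39 and quantified them with kallisto against Ensembl GRCh38. The deposited values are TPM per Ensembl gene. The Ensembl release and the way transcripts were summed are not given in the sources used here. Depth is unknown, and so no interval or limit that rests on counts could be computed. The authors tested counts with DESeq2 1.26.0, and those counts were not used here.

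Positions and exon overlaps came from GENCODE 44 (GRCh38) and windows around starts from RefSeq (GRCh38.p14). log2(TPM + 1) was fitted with limma 3.58.1 (R 4.3.3), using a term for each condition, for IDs averaging 2 TPM or more in any condition. Tests were two-sided with an intensity trend and were adjusted by the Benjamini-Hochberg method over 12773 IDs. The interaction was the IFNγ effect under siMITF minus the IFNγ effect under siCTRL. The procedure was tested on simulated data. A permutation test of 3 libraries against 3 cannot go below 0.1 and was not used.

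The 10 enzymes and the lists were chosen with earlier results of these data known. Partners were named where they had the largest changes (up to 4 per list and comparison) among called genes without overlap between libraries, and similar genes were the 3 with the highest Pearson r. Deviations from condition means correlated across genes at 0.102 to 0.63 in the 18 pairs of libraries that share a number in their titles. In the other 36 pairs they correlated at -0.474 to 0.23. The numbers were taken as pairing in the replicate block only. The main fit, with its calls, intervals and figures, has no term for them. Alternatives were pseudocounts of 0.1 and 0.5, no filter or a mean of 5 TPM, quantile normalization, median centring, rescaling without mitochondrial genes, no trend, fits restricted to 2 conditions, the replicate block, values summed by symbol, an adjusted p under 0.01 and leaving out each library. Python 3.11.15, pandas 2.3.3, numpy 2.4.6 and, for the plots, matplotlib 3.10.9 were used.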

Additional observations from a re-analysis of the deposited data

Results flagged for a closer look

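The effect of IFNγ on KDM1A differed between siMITF and siCTRL cells by -0.85 on the log2(TPM + 1) scale, as tested by the interaction term in limma (adjusted p = 0.00101), with means of 123 and 214 TPM without and with IFNγ in siCTRL cells and of 91.5 and 88 TPM in siMITF cells. For DNMT3B the same difference was -1.04 (adjusted p = 0.0089), with means of 6.88 and 12 TPM in siCTRL cells and of 5.47 and 4.17 TPM in siMITF cells. With 3 libraries in each group, no search for single libraries standing apart was made.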

How the results depend on the processing

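The 2 called interactions, of KDM1A and DNMT3B, were found in every alternative, leaving out each library included. For siMITF without IFNγ (4 enzymes called, beside 34.8% of all genes), quantile normalization, centring on medians and a fit of only 2 conditions each gave 7. These were 4 higher and 3 lower, against 3 and 1, beside 43.5, 44.4 and 45.6% of all genes. The replicate block gave 8, beside 47.7%, and an adjusted p under 0.01 gave 2, beside 23.2%. With IFNγ (3, beside 33.1%), the siMITF count was 7 with quantile normalization (3 higher, 4 lower, against 1 and 2), beside 44.6%. It was 6 with centring (3 and 3), 5 without mitochondrial genes (3 and 2) and 6 with the block, beside 43.2, 40.9 and 46.3%. For IFNγ in siCTRL cells (4, beside 12.9%) the count was 2 with only 2 conditions and 2 at an adjusted p under 0.01, beside 8.44 and 6.79%. For IFNγ in siMITF cells (3, beside 20.2%) the count was 6 with quantile normalization, centring or the block, beside 31.3, 29.8 and 35.7%. The combination (5, beside 44.5%) gave 3 at an adjusted p under 0.01, beside 31.5%. Leaving out 1 library gave 2 to 6, 2 to 4, 2 to 4, 3 to 4, 4 to 5 and 2 to 2 enzymes in the order of the 5 comparisons and the interaction. The shares of all genes were then 27.2 to 38.7, 25.7 to 33.8, 8.25 to 16, 12.9 to 24.5, 37.4 to 48 and 0.546 to 0.977%. The cause was not tested. The replicate block, which uses the pairing by library number, lost no call of the 10 enzymes, and those it added are given beside the results, with its counts for the gene lists. Counting the enzymes without TET1, a choice made after seeing the data, moved no count by over 1.5 times.

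Of 704 values of single enzymes under other settings, 636 kept direction and side of the threshold, 16 lost the call, 46 gained one and 6 changed sign. The last were all uncalled: TET1 with siMITF without IFNγ at -0.15 (quantile), -0.03 (centring) and -0.0017 (no mitochondrial genes), TET2 with IFNγ in siMITF cells at 0.00086 and 0.0014 (quantile, no mitochondrial genes) and KDM1A there at 0.01 (quantile). Of 720 values without 1 library, 33 changed sign, none of them called (lowest adjusted p 0.756). Their ranges without 1 library were, for siMITF without IFNγ, -0.0085 to 0.02 (TET1), for siMITF with IFNγ, -0.02 to 0.38 (DNMT1) and -0.05 to 0.24 (DNMT3A), for IFNγ in siCTRL cells, -0.19 to 0.09 (TET2) and -0.14 to 0.04 (SETDB1), for IFNγ in siMITF cells, -0.11 to 0.07 (TET2), for the combination, -0.35 to 0.05 (DNMT1) and -0.05 to 0.10 (UHRF1), and for the interaction, -0.38 to 0.01 (DNMT1), -0.13 to 0.15 (TET2), -0.18 to 0.22 (TET3) and -0.17 to 0.01 (SETDB1). A minimum of 5 TPM left TET1 untested.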

Other observations

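A list of 13 germline genes that DNA methylation keeps silent in somatic cells, among them DAZL, MAEL and SYCP3, stayed below the minimum for testing in all 12 libraries. Its summed level was 0.825 to 1.55 TPM in siCTRL, 1.56 to 1.92 TPM in siCTRL + IFNγ, 0.728 to 1.69 TPM in siMITF and 1.03 to 1.7 TPM in siMITF + IFNγ libraries, and the highest single value was 0.919 TPM, for TEX14. The tested genes nearest to KDM1A and DNMT3B on each side were looked up after the values had been seen, and genes below the minimum were passed over. For KDM1A, ZBTB40 ends at chr1:22531157, before the KDM1A start at 23019443. None had a called interaction, with ZBTB40 at -0.13 (adjusted p = 0.993, limma), LUZP1 at -0.10 (0.997), COMMD7 at -0.25 (0.476) and MAPRE1 at -0.05 (0.993). COMMD7, which lies before DNMT3B on the chromosome, rose with IFNγ in siCTRL cells by 0.33 (adjusted p = 0.00672).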
